A study of Mus musculus with 45 samples.

Results

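The replication-dependent histone genes were examined in fully grown oocytes (FGOs) and late two-cell embryos of the mouse. Members were taken by gene symbol (H1f1 to H1f6 and every gene named H2ac, H2bc, H3c or H4c with a number), which gave 63 of the 26214 genes in the expression table. They comprised 6 H1, 17 H2A, 16 H2B, 12 H3 and 12 H4 genes. In GRCm38.p6 (mm10), 10 of them lay on chromosome 3 (chr3:96219885-96270192) and 53 on chromosome 13, of which 22 lay at chr13:21715711-22043658, 29 at chr13:23531044-23764412 and 2, H2bc1 and H2ac1, at chr13:23933725-23934913.

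The study expressed histone H3.3 with methionine in place of lysine 36 (K36M) in the oocyte, to ask what methylation of that lysine does there. Control oocytes carried the H3f3b K36M-flox allele over a wild-type allele with no Cre, and K36M oocytes carried the same heterozygous allele with Gdf9-Cre, which is active in oocytes. Both groups of FGOs, 3 libraries each, were of the hybrid C57BL/6 / 129 strain and came from females 3 to 4 weeks old. Two-cell embryos were made by fertilizing superovulated oocytes of the same maternal genotypes in vitro with JF-1 sperm (C57BL/6 / 129 X JF-1 hybrids) and were taken 31 to 32 h after fertilization. There were 7 control embryos, since a replicate that the study set aside (number 4) was left out, and 8 K36M oocyte-derived embryos. Per the study, K36M females give offspring that carry or lack the K36M allele, and no genotype of single embryos was used here. Each FGO library held 5 pooled oocytes and each two-cell library a single embryo, which received more amplification cycles, so stage cannot be told apart from pooling, amplification, paternal genome or superovulation in these libraries. Levels are in TPM (transcripts relative to the library's total, after division of reads by gene length), so that genes can be compared within a library. Read depth cannot be read from TPM, but by the study's list of total reads each FGO library was sequenced more deeply than each embryo.

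Histones H2A, H2B, H3 and H4 form the nucleosome core, and H1 binds the linker DNA between nucleosomes. In most cells the replication-dependent genes are transcribed in S phase, when new chromatin is assembled. Their mRNAs have no introns in most cases and end not in a poly(A) tail but in a conserved stem-loop, which the stem-loop binding protein Slbp holds for processing, translation and decay. Growing oocytes do not replicate DNA but store histones for the cleavage divisions, and they express germ-cell variants such as those encoded by H2ac1 (TH2A) and H2bc1 (TH2B). The library kit primes at random positions, so RNA without a poly(A) tail could be sequenced.

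The stem-loop is shown because it sets these transcripts apart from most other mRNAs, including most of those of replication-independent histones. A 16-base stem-loop was found within 150 bases after the stop codon of 61 of the 63 members in the RefSeq annotation of GRCm38.p6, and was not found in those windows for H2ac22 and H2bc21. It took 8 forms, given here in the sense strand with the loop in capitals.
Shared by 38 members of H1, H2A, H2B and H3, here from H1f1 (chr13:23764392-23764407, + strand): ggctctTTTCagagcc
Shared by 9 members of H1, H2A, H2B and H3, here from H2bc1 (chr13:23933730-23933745, - strand): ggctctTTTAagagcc
Shared by 7 H4 genes, here from H4c3 (chr13:23698089-23698104, - strand): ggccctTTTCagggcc
Shared by H4c9 and H4c14, here from H4c9 (chr13:22040966-22040981, - strand): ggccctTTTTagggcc
Shared by H4c2 and H4c11, here from H4c2 (chr13:23757366-23757381, + strand): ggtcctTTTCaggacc
Of H4c1 alone (chr13:23760800-23760815, - strand): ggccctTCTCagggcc
Of H2ac20 alone (chr3:96220418-96220433, - strand): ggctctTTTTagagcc
Of H3c8 alone (chr13:23535889-23535904, + strand): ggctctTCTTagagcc
The 12 H4 genes used stems that no other class used. H4 genes also encoded a single protein of 103 residues, and the 12 H3 genes encoded 2 proteins, H3.1 (H3c1, H3c8, H3c10 and H3c11) and H3.2 (the other 8 genes).

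Promoter sequences are shown for the most abundant H1, H2B and H4 genes and for the germ-cell pair, which the stage results below turn on. The 150 bases before each start site follow, with capitals marking, on either strand, the CCAAT box, the TATA box (TATAAA), the octamer (ATTTGCAT) of H2B promoters and the AAACACA box of H1 promoters.
H1f1 (chr13:23763518-23763667, + strand): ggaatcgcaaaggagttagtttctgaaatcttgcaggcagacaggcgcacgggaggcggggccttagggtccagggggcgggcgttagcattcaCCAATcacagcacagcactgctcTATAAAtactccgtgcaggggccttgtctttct
H2bc18 (chr3:96269550-96269699, + strand): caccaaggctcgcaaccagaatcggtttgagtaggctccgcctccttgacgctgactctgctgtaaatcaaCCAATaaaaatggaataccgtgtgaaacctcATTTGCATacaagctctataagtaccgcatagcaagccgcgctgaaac
H4c3 (chr13:23698459-23698608, - strand): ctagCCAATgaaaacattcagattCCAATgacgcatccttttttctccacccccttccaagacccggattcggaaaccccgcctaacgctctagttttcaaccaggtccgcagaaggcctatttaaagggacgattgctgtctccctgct
H2bc1 and H2ac1 are transcribed away from each other, and all 280 bases between their start sites follow, H2bc1 starting to the left and H2ac1 to the right.
H2bc1 to H2ac1 (chr13:23934157-23934436, + strand): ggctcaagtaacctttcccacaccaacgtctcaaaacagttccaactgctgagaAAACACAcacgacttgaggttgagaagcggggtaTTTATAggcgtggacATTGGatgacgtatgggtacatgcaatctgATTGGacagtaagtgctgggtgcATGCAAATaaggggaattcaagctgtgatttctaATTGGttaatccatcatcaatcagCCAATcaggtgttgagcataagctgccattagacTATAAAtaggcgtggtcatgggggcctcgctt
Of the 58 members with a RefSeq promoter (250 bases before to 50 after the start), CCAAT was present in 86.2% against 41.1% of the promoters of all 27025 genes with one. TATAAA was present in 58.6% against 15.7%, ATTTGCAT in 22.4% against 1.97% and AAACACA in 15.5% against 8.22%. The octamer was found in 7 of 14 H2B and 6 of 17 H2A promoters and in none of the other members. The windows of divergent pairs, such as H2ac12 and H2bc12, overlap, so a match can count for both genes. AAACACA was found in 5 of 6 H1 promoters, and CCAAT in 3 of 11 H4 promoters and in every promoter of the other classes. These matches describe letters in the windows and were not tested against expression.

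Many members are near-identical, so reads can be shared between them. The median member had 54.1% of its transcript windows of read length in common with another member, with a range of 0% to 100%. None of the windows of H1f1 and H2bc18 was shared. H2ac18 and H2ac19 stood in a constant ratio of TPM in all 22 deposited libraries, as did H3c15 to H3c14 and H2ac23 to H2ac24, so each of these pairs is a single measurement. The exon lengths of each pair stand in the inverse ratio, at 556 and 596 bases for H2ac18 and H2ac19. Both genes of a pair thus hold equal read counts. Whether reads that fit both were counted in full for each or split between them is not given in the sources used here. Values of single copies are uncertain, so class sums are given beside them, and these sums include both genes of each pair.

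Oocyte markers such as Gdf9 and Zp3 were called lower in two-cell embryos for 10 of 10 genes of the marker list in controls, and markers of the late two-cell stage were called higher for 7 of 8. Granulosa and cumulus markers summed to 122 to 136 TPM in control FGOs, 133 to 199 in K36M FGOs, 137 to 268 in control embryos and 77.8 to 396 in K36M oocyte-derived embryos. Stroma and theca markers summed to at most 56.7 TPM in any library, and blood markers to at most 12.0 TPM in FGOs and control embryos and 276 TPM in K36M oocyte-derived embryos. The part of such cells in the results below was not tested. The gene that carries the mutation, H3f3b, was at 307, 265 and 308 TPM in control FGOs and 399, 418 and 377 in K36M FGOs. In embryos its lowest, median and highest levels were 301, 389 and 968 TPM in controls and 385, 597 and 986 in the K36M oocyte-derived group. The total of both alleles does not check the mutation, because TPM does not tell the K36M allele from the wild-type allele. Replicates are separate pools or embryos, and nothing in the sources ties them to separate females, so p-values measure the spread between these libraries.

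The transcripts of the replication-dependent histone genes took a larger share of the two-cell embryo's RNA than of the oocyte's. Their summed level was 4634 ± 246 TPM (SD, n = 3) in control FGOs, or 0.463% of all TPM, and 15167 ± 3012 TPM (n = 7), or 1.52%, in control two-cell embryos. In the K36M groups it was 4893 ± 640 TPM (n = 3) and 14922 ± 3284 TPM (n = 8). The ratio of embryo to FGO means was 3.27 in controls and 3.05 in the K36M groups, and each embryo was above each FGO library. Since TPM is a share, fewer or more transcripts of these genes cannot be told apart from a change in the rest of the RNA. TPM also gives no amount of RNA per oocyte or embryo.

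**Figure D1:**
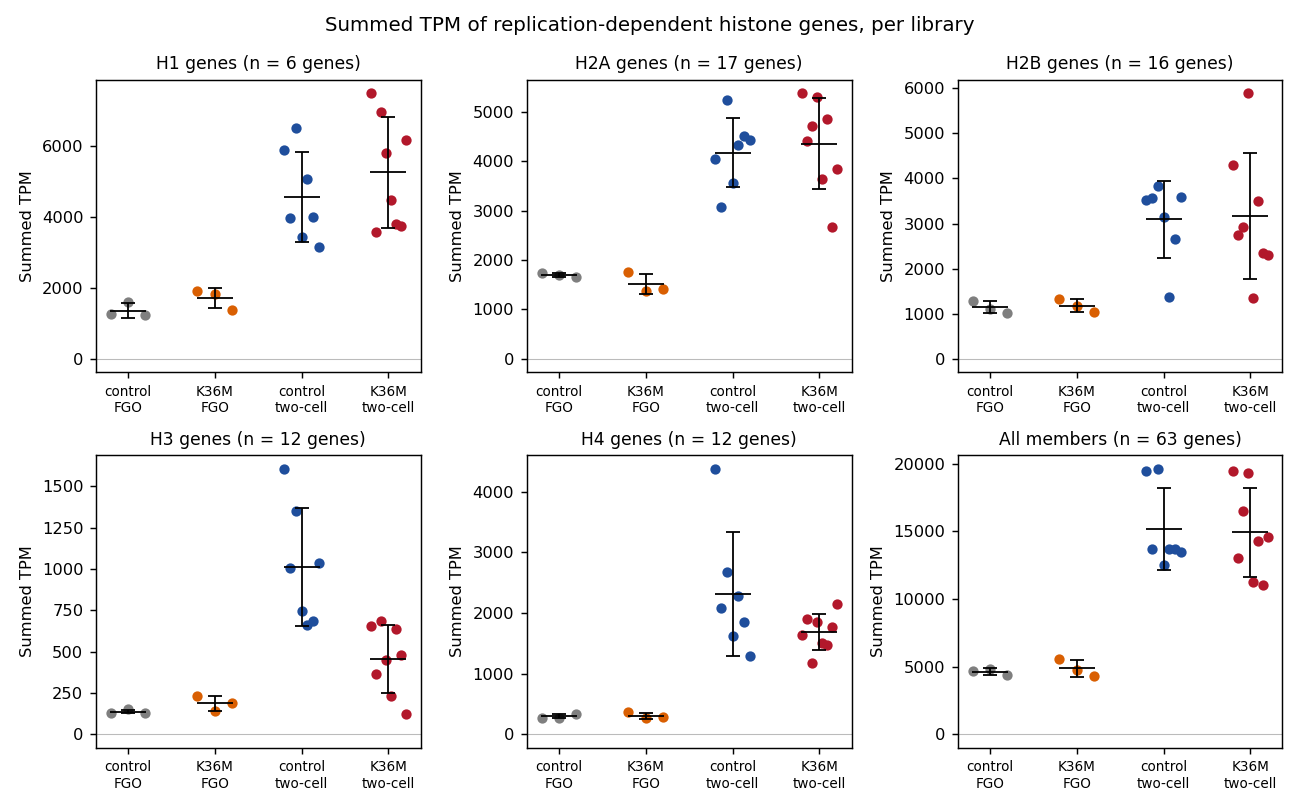
Summed TPM of the members of each histone class and of all 63 members, on linear axes from 0, in control FGOs (n = 3), K36M FGOs (n = 3), control two-cell embryos (n = 7) and K36M oocyte-derived two-cell embryos (n = 8). Points are libraries and bars are the mean ± SD. Each class sum was higher in every control embryo than in every control FGO library, and the H3 sum was 1012 TPM on average in control and 453 TPM in K36M oocyte-derived embryos.

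The classes differed in size of change. In controls the mean H3 sum was 7.33 times and the H4 sum 7.78 times as high in embryos as in FGOs, against 3.36 times for H1, 2.46 for H2A and 2.71 for H2B. H3 genes summed to 138 ± 11.5 TPM in control FGOs and 1012 ± 358 TPM in control embryos, and H4 genes to 297 ± 33.8 and 2313 ± 1015 TPM. All 5 sums were without overlap between control FGOs and control embryos. In the K36M groups all but the H3 sum were. There the ratios of embryo to FGO means were 2.42 for H3, 5.46 for H4, 3.08 for H1, 2.87 for H2A and 2.70 for H2B. The H3 ratio was thus the lowest of the 5 classes there. The low ratio for H2A in controls came with 1 gene, H2ac1. Without it the H2A sum was 624 ± 32.5 TPM in control FGOs and 3905 ± 709 TPM in control embryos, 6.25 times as high. These sums were not tested. The H2A sums include both H2ac18 and H2ac19, at 142 and 133 TPM in control FGOs and 933 and 870 TPM in control embryos. The chromosome 3 sum that follows includes them too. By position, the sum was 4.98 times as high in control embryos as in control FGOs for the chromosome 3 genes, 5.87 times for the 22 and 3.93 times for the 29 genes of the larger chromosome 13 groups, and 0.417 times for H2bc1 and H2ac1.

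Gene by gene, 62 members could be tested in controls across stages, and H2bc21, at no more than 1.41 TPM in any library, could not. With limma on log2(TPM + 1), 26 members rose in control embryos at an adjusted p under 0.05, where 13.4% of all 17358 genes tested did, and 1 member fell, where 13.2% of all genes did. With H2ac18 and H2ac19, and H2ac23 and H2ac24, each counted as 1 measurement, 24 rose. The median log2 fold change of the 62 members was 1.90, against 0.00 over all genes. By class, 1 of 6 H1, 11 of 17 H2A (9 with each of these pairs counted once), 3 of 15 H2B, 6 of 12 H3 and 5 of 12 H4 genes rose. In 18 members (16 with each pair counted once) every control embryo was above every control FGO library (14.1% of all genes), and in 1 every embryo was below (18.2%). In the K36M groups 18 members (16 with each pair counted once) rose (10.8% of all genes) and 1 fell (18.6%), with a median of 1.29 against -0.18, and 14 members (9.04% of all genes; 13 members with each pair counted once) lay wholly above and 1 (17.2%) wholly below the FGO libraries. Leaving out any 1 FGO library of the genotype compared lowered the calls, among the members and over all genes. Leaving out single control embryos gave from 22 higher and 1 lower (without replicate 3) to 29 higher and 1 lower (without replicate 7) in controls. Over all genes these fits called 2136 higher and 2191 lower of 17266, and 2334 and 2103 of 17343. Leaving out K36M oocyte-derived replicate 1 gave the most calls in the K36M groups, 20 higher and 2 lower, beside 1927 and 3329 of 17320 genes. Without control FGO replicate 3 the control comparison called 15 members higher and 1 lower, beside 9.16% and 7.4% of all genes. Without K36M FGO replicate 1 the K36M comparison called 12 higher and 0 lower, beside 7.87% and 11.8% of all genes. Without K36M FGO replicate 2 it called 11 higher and 1 lower, beside 8.02% and 11.9%.

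**Figure D2:**
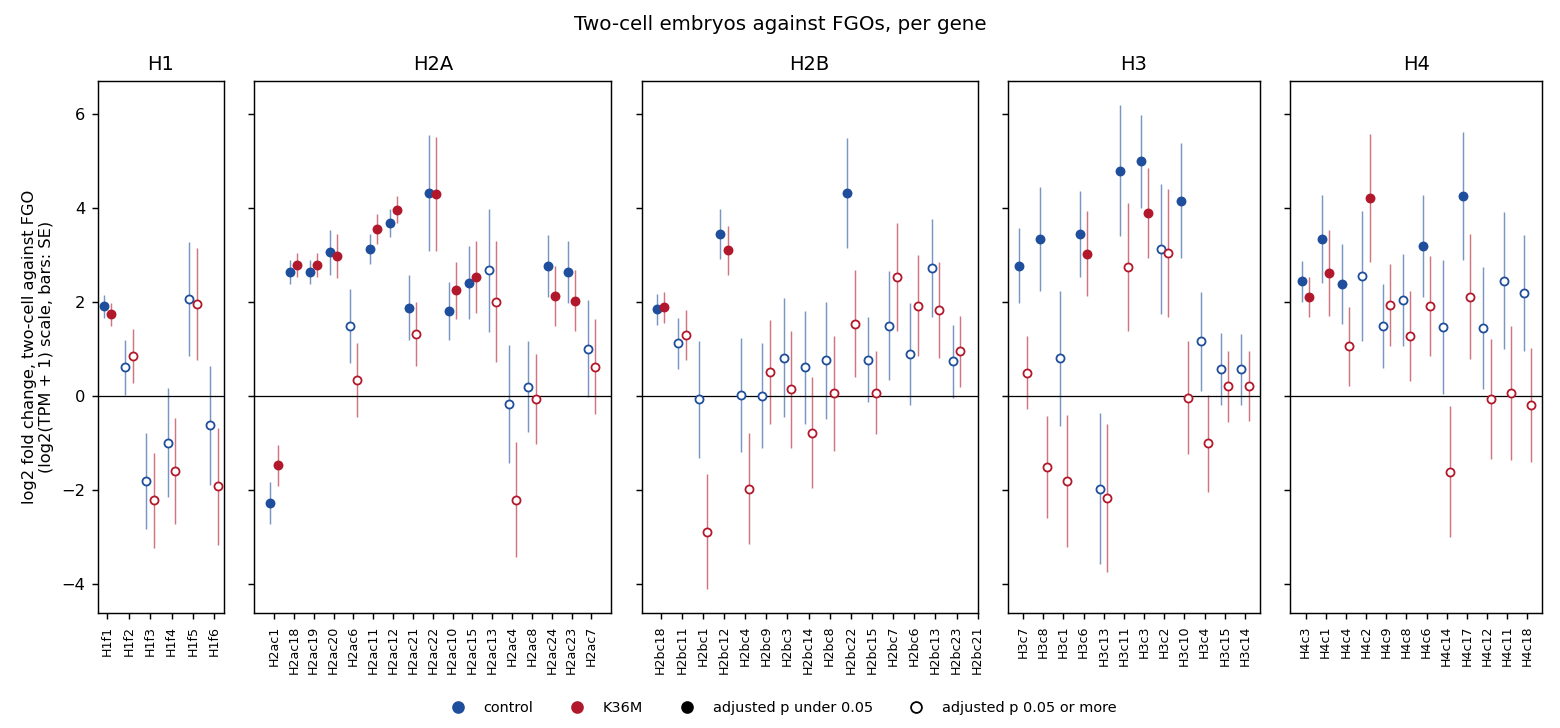
Log2 fold change of each member between two-cell embryos and FGOs on the log2(TPM + 1) scale, by histone class, for controls (blue) and the K36M groups (red). Bars are SE from limma and filled points have an adjusted p under 0.05. Genes are ordered by mean level within a class, and in controls 26 filled points lie above 0 and 1, H2ac1, lies below.

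H1f1, which encodes the linker histone H1.1, had the highest mean level of the members in each of the 4 groups, although H2ac1 was above it in 2 of the 3 control FGO libraries. H1f1 was at 1038, 1345 and 923 TPM in control FGOs and 1638, 1496 and 1004 TPM in K36M FGOs. In embryos its lowest, median and highest levels were 2918, 3871 and 6099 TPM in controls and 3218, 4457 and 7249 TPM in the K36M oocyte-derived group. Every embryo was above every FGO library. H1f1 rose by a log2 fold change of 1.92 ± 0.25 (SE) in controls (adjusted p = 2.52e-06) and 1.75 ± 0.24 in the K36M groups (adjusted p = 6.42e-06). It was the only H1 gene that passed this test. H1f2, second among H1 genes by the mean over the groups, was at 86.2 ± 31.0 TPM in control FGOs and 142 ± 71.8 TPM in control embryos (log2 fold change 0.62, adjusted p = 0.470). H1f3 was at 119, 100 and 85.8 TPM in control FGOs, while control embryos ranged from 5.08 to 107 TPM (log2 fold change -1.80 ± 1.03, adjusted p = 0.211), and with array weights this fall was called (-1.83, adjusted p = 0.00296). H1f6, the testis linker histone H1t, was at 0 in the median embryo of both genotypes and at no more than 28.9 TPM in FGOs.

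The H2A genes gave the smallest adjusted p of the members. H2ac12 was at 21.1, 27.1 and 22.7 TPM in control FGOs and 16.3, 12.1 and 15.9 TPM in K36M FGOs. Control embryos ranged from 224 to 540 TPM with a median of 280 TPM, and K36M oocyte-derived embryos from 194 to 367 TPM with a median of 232 TPM, far above all FGO libraries. Its log2 fold change was 3.69 ± 0.29 in controls (adjusted p = 1.09e-09) and 3.97 ± 0.29 in the K36M groups (adjusted p = 1.72e-10). H2ac18, which shares its signal with H2ac19, went from 142 ± 15.7 to 933 ± 287 TPM in controls (log2 fold change 2.65 ± 0.25, adjusted p = 3.04e-08). It went from 158 ± 23.7 to 1132 ± 303 TPM in the K36M groups (2.80 ± 0.25, adjusted p = 8.61e-09). H2ac22, with no stem-loop found in its window, was at 1.72 ± 0.64 TPM in control FGOs and spread from 1.45 to 203 TPM in control embryos (4.33 ± 1.24, adjusted p = 0.0118). That call was lost without control FGO replicate 3 (adjusted p = 0.0516).

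H2ac1 and H2bc1, the germ-cell pair of H2A and H2B genes, were not among the members that rose. Together they made up 29.2% of the members' TPM in control FGOs and 3.80% in control embryos. H2ac1 was at 1086, 1080 and 1057 TPM in control FGOs and 1122, 822 and 789 TPM in K36M FGOs. In embryos its lowest, median and highest levels were 61.4, 233 and 550 TPM in controls and 177, 323 and 598 TPM in the K36M oocyte-derived group. Every embryo was below every FGO library, and H2ac1 fell by 2.26 ± 0.45 on the log2 scale in controls (adjusted p = 0.000514) and by 1.47 ± 0.44 in the K36M groups (adjusted p = 0.0133). The latter call was lost without K36M FGO replicate 1 (adjusted p = 0.0814) and with the replicate number fitted as a block (0.0511). H2bc1, across the 280-base interval printed above, was at 337, 319 and 183 TPM in control FGOs and 406, 373 and 238 TPM in K36M FGOs. Its levels in control embryos overlapped those of FGOs, at 143 to 622 TPM with a median of 251 TPM (log2 fold change -0.06 ± 1.24, adjusted p = 0.988). In K36M oocyte-derived embryos it lay at 930 TPM in replicate 1 and between 0 and 153 TPM in the other 7 (log2 fold change against K36M FGOs -2.87 ± 1.22, adjusted p = 0.0802), and without replicate 1 the fall passed the test (-3.50, adjusted p = 0.0170).

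**Figure D3:**
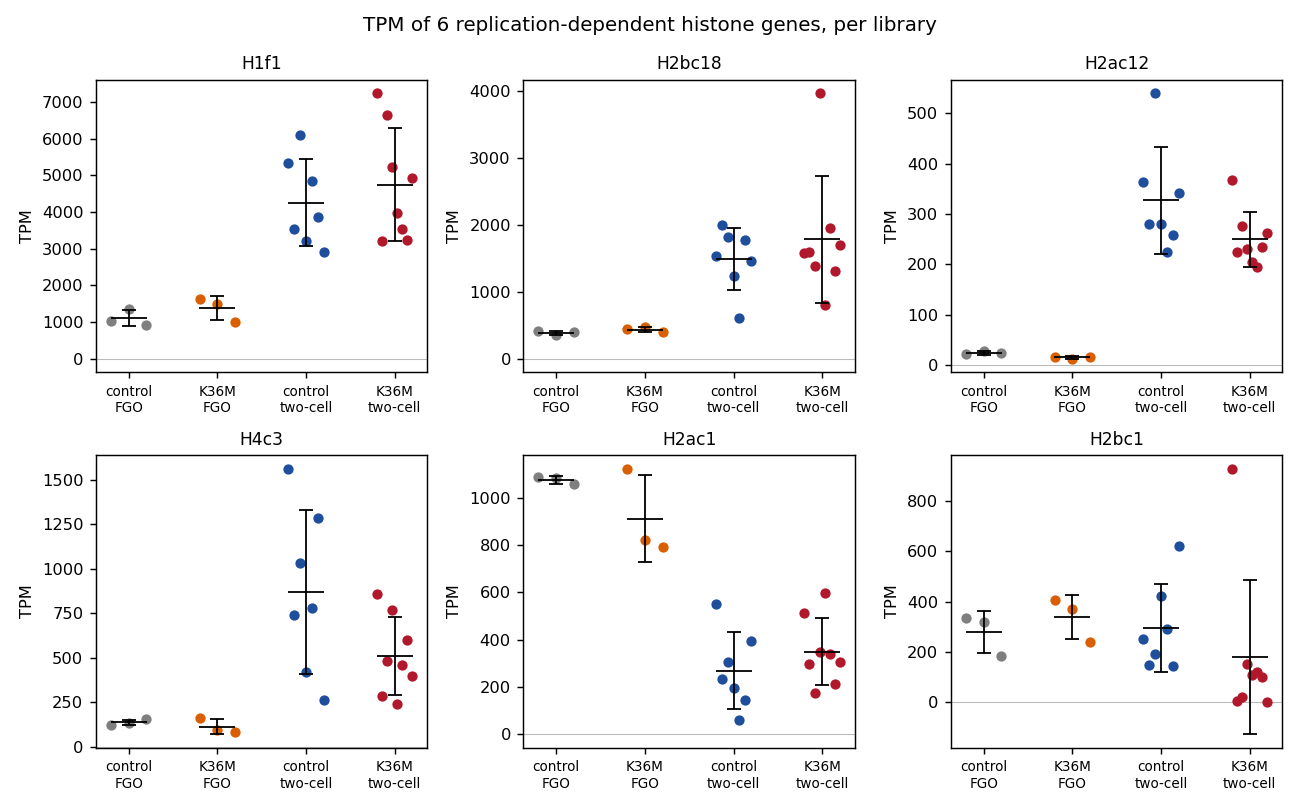
TPM per library of H1f1, H2bc18, H2ac12, H4c3, H2ac1 and H2bc1, on linear axes, in the 4 groups. Points are libraries and bars the mean ± SD (n = 3, 3, 7 and 8). H1f1 and H2ac12 lie higher in every embryo than in any FGO library, H2ac1 lies lower, and H2bc1 overlaps between the stages.

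Of the other H2B genes, H2bc18 was the most abundant and shares no read-length window with another member. It was at 415, 359 and 395 TPM in control FGOs and 439, 476 and 394 TPM in K36M FGOs. Control embryos ranged from 606 to 1996 TPM with a median of 1531 TPM, and K36M oocyte-derived embryos from 798 to 3976 TPM with a median of 1584 TPM. No embryo overlapped the FGO libraries, and the log2 fold change was 1.85 ± 0.33 in controls (adjusted p = 0.000186) and 1.90 ± 0.33 in the K36M groups (adjusted p = 9.93e-05). H2bc11 was at 231 ± 31.0 TPM in control FGOs and 589 ± 275 TPM in control embryos, where replicate 6 at 135 TPM lay below all FGO libraries (log2 fold change 1.13 ± 0.54, adjusted p = 0.130). Without replicate 6 the rise passed the test (1.44, adjusted p = 0.0280). H2bc22 was listed at 0 in 2 of 3 control FGO libraries and at 0.13 TPM in the other, and reached 0.534 to 151 TPM in control embryos (adjusted p = 0.00748). The mean of at least 1 TPM required for testing was reached by H2bc22 only through the embryos.

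Among H3 genes, the largest log2 fold change in controls was that of H3c3, an H3.2 gene. This gene reached the mean of at least 1 TPM required for testing only through the embryos. It was at 1.37, 0.701 and 0 TPM in control FGOs and 7.18 to 233 TPM in control embryos (5.00 ± 0.98, adjusted p = 0.000514), and rose in the K36M groups as well (3.90 ± 0.97, adjusted p = 0.00356). H3c7, the most abundant H3 gene by mean over the groups, was at 31.3, 36.6 and 26.8 TPM in control FGOs and 107 to 443 TPM in control embryos (2.79 ± 0.79, adjusted p = 0.0111). H3c11, an H3.1 gene, was below 1 TPM in each control FGO library and had a median of 55.5 TPM in control embryos, with replicate 6 at 0 (4.80 ± 1.39, adjusted p = 0.0126). The calls of H3c7 and H3c11 were lost without control FGO replicate 3 (adjusted p = 0.0523 and 0.0528). That of H3c11 was also lost without control FGO replicate 2 (adjusted p = 0.0505) and with the replicate number fitted as a block (0.0551). H3c8, described further below, also rose in controls (3.35 ± 1.11, adjusted p = 0.0272). That call was lost when control FGO replicate 1, 2 or 3 was left out alone (adjusted p = 0.0715, 0.100 and 0.0811). It was also lost with a pseudocount of 0.1 (0.0977) and with all genes above 0 tested (0.0521). In the K36M groups 2 of 12 H3 genes rose, where 10.8% of all genes did. H3c7 (0.50, adjusted p = 0.675), H3c11 (2.76, adjusted p = 0.137) and H3c8 (-1.50, adjusted p = 0.333) were not called there.

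H4c3 was the most abundant H4 gene. It was at 123, 135 and 153 TPM in control FGOs and 163, 95.6 and 80.5 TPM in K36M FGOs. Control embryos ranged from 261 to 1563 TPM with a median of 782 TPM, and K36M oocyte-derived embryos from 239 to 857 TPM with a median of 470 TPM, in both cases above all FGO libraries. The log2 fold change was 2.45 ± 0.44 in controls (adjusted p = 0.000178) and 2.11 ± 0.43 in the K36M groups (adjusted p = 0.00062). H4c1 rose in controls (3.35 ± 0.93, adjusted p = 0.00923), although control embryo replicate 7 was at 4.33 TPM, below the FGO libraries, and rose in the K36M groups (2.63 ± 0.91, adjusted p = 0.0314). H4c4 rose in controls only by this test (2.38 ± 0.85, adjusted p = 0.0405) and H4c2 in the K36M groups only (4.22 ± 1.36, adjusted p = 0.0208); a test of the difference between genotypes called neither (interaction adjusted p = 1.00 for both). The calls of H4c1, H4c2 and H4c4 were lost under several alternatives. H4c1 lost its call in controls without control FGO replicate 3 (adjusted p = 0.0641). In the K36M groups it lost it when K36M FGO replicate 1, 2 or 3 was left out alone (0.0998, 0.0683 and 0.112). The same held there without a mean-variance trend (0.0512), with all genes above 0 tested (0.0630) and with the replicate number fitted as a block (0.0556). H4c2 lost its call without K36M FGO replicate 2 or 3 (0.0689 and 0.0937) and with a pseudocount of 0.1 (0.0596). H4c4 lost its call when control FGO replicate 1, 2 or 3 was left out alone (0.197, 0.0902 and 0.0660), and likewise control embryo replicate 1, 2, 3 or 6 (0.0718, 0.0636, 0.0609 and 0.0541). It also lost it with median-of-ratios scaling (0.0729), without the trend (0.0627) and with all genes above 0 tested (0.0743).

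The level of single members varied more between embryos than between FGO libraries, as did that of all genes. Among members with a mean of at least 10 TPM in the group, the median coefficient of variation between libraries was 25.5% in control FGOs and 29.1% in K36M FGOs, and 86.4% in control embryos and 95.2% in K36M oocyte-derived embryos. For all genes of at least 10 TPM the medians were 9.19%, 13.02%, 57.4% and 68.9%. Of the 63 members, 55 (87.3%) were above 0 in each of the 6 FGO libraries and 34 (54.0%) in each of the 15 embryos, a larger number of libraries, against 56.3% and 25.8% of all genes. An embryo had between 0 and 11 members at 0. H3c1 was at 326 TPM in control replicate 3 and between 0 and 102 TPM in the other 6, and H4c2 was at 599 TPM in control replicate 6 and between 0 and 163 TPM in the others. The sum of all members had a coefficient of 19.9% in control and 22.01% in K36M oocyte-derived embryos. A sum over many genes is not comparable with single genes, so no contrast is drawn. The input was 5 oocytes in FGO libraries and a single embryo in the others, and FGO libraries were also the more deeply sequenced; the part of these differences was not tested.

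**Figure D4:**
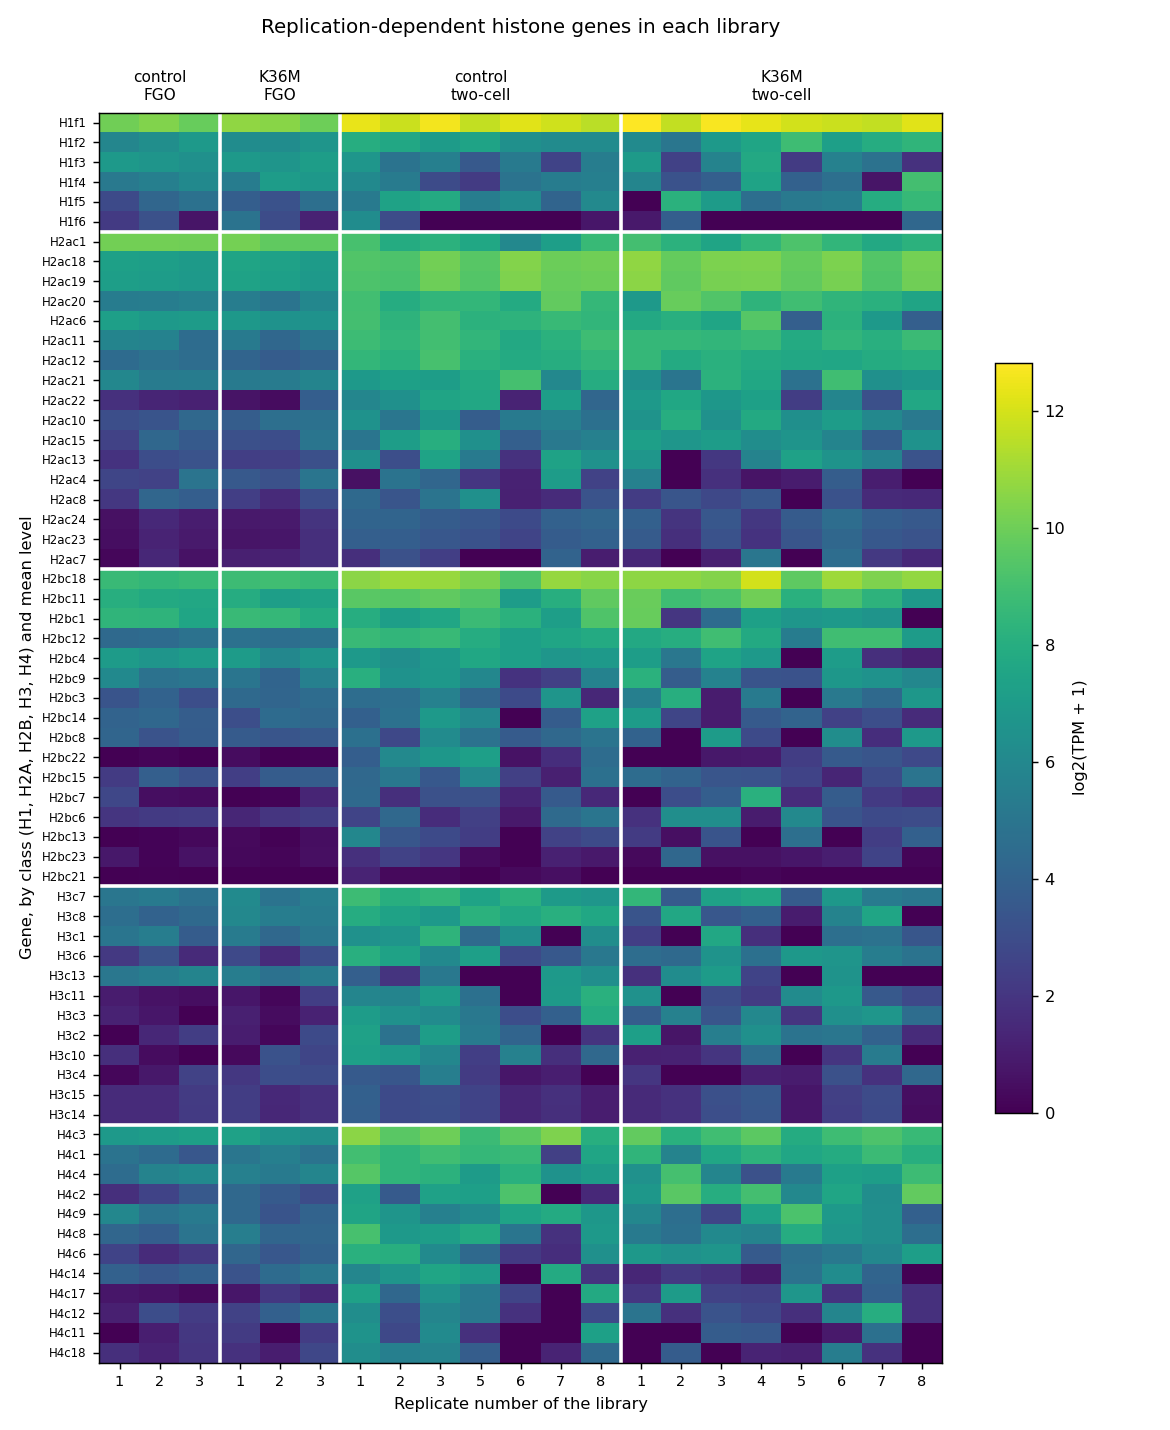
Log2(TPM + 1) of the 63 members (rows, by class and mean level, white lines between classes) in the 21 libraries used (columns, labelled by replicate number). The rows of H1f1, H2ac18, H2ac19 and H2bc18 are bright in every embryo, H2ac1 is brighter in FGOs, and single embryos have dark cells in rows that are bright in others, with up to 11 members at 0.

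In FGOs, no member passed the test between K36M and control. The study's own test on counts called more genes in FGOs than the 1 gene called here with limma. Of 58 members tested, 0 were called in either direction (0% of all 13775 genes were called higher and 0.00726%, 1 gene, lower). At an unadjusted p under 0.05, 7 members were higher (5.15% of all genes) and 3 lower (5.34%), and the median log2 fold change was 0.18 against 0.01 over all genes. Libraries did not overlap for 4 higher (7.46%) and 3 lower (8.17%) members. The smallest adjusted p, 0.281, belonged to H3c8 and H4c6. H3c8, an H3.1 gene, was at 23.8, 15.2 and 19.97 TPM in control and 62.2, 43.0 and 38.9 TPM in K36M FGOs, without overlap (log2 fold change 1.24 ± 0.22). H4c6 was at 5.04, 1.98 and 3.32 TPM in control and 17.5, 10.1 and 15.3 TPM in K36M FGOs (1.81 ± 0.33). H4c9 was at 59.4, 28.5 and 37.4 TPM in control and 19.4, 9.11 and 15.9 TPM in K36M FGOs (-1.43 ± 0.32, adjusted p = 0.306). H1f1 (0.31 ± 0.19, adjusted p = 0.589) and H2ac1 (-0.26 ± 0.12, adjusted p = 0.497), the most abundant members, were not called. Without K36M FGO replicate 1, 2 members were called higher and 3 lower, beside 1.38% of all genes higher and 0.79% lower. Among them were H3c8 (1.04, adjusted p = 0.0478), H4c9 (-1.65, adjusted p = 0.0487) and H2ac1 (-0.41, adjusted p = 0.0246).

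In two-cell embryos too, no member passed the test between K36M oocyte-derived and control embryos. Of 62 members tested, 0 were called (0% of all 17362 genes in either direction). At an unadjusted p under 0.05, 2 were higher (1.2% of all genes) and 10 lower (6.5%), and the median log2 fold change was -0.33 against -0.26 over all genes. No single member was without overlap between the groups (0.023% of all genes higher and 0.0922% lower). The H1, H2A and H2B sums had ratios of K36M to control means of 1.15, 1.04 and 1.03, and the H4 sum 0.728. H1f1 had a log2 fold change of 0.14 ± 0.18 (adjusted p = 0.832) and H2ac1 one of 0.54 ± 0.37 (adjusted p = 0.719). H2bc1, at 930 TPM in replicate 1 and at most 153 TPM in the other K36M oocyte-derived embryos, had one of -2.52 ± 0.96 (adjusted p = 0.572). More genes were at 0 in K36M oocyte-derived embryos (43.2% to 58.4% of all genes) than in control embryos (33.9% to 53.8%), and the part of that in these values was not tested.

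Of the class sums, that of the H3 genes had the lowest ratio of K36M oocyte-derived to control embryos, while the median log2 fold change was -0.77 for H3 and -0.83 for H4 genes. The H3 sum was 1012 ± 358 TPM in control and 453 ± 205 TPM in K36M oocyte-derived embryos, a ratio of 0.448, and 11 of the 12 genes (10 of 11 with H3c14 and H3c15 counted once) had a log2 fold change below 0, as 63.8% of all genes did. The smallest adjusted p of any member, 0.306, was that of H3c8. In control embryos H3c8 ranged from 123 to 287 TPM with a median of 207 TPM, and in K36M oocyte-derived embryos from 0 to 203 TPM with a median of 12.3 TPM. Replicates 2 and 7 of the latter, at 203 and 185 TPM, lay within the control range and the other 6 below it (log2 fold change -3.61 ± 0.87). The 4 H3.1 genes, a grouping by encoded protein that was chosen after their values had been seen, summed to 539, 440, 637, 337, 337, 405 and 575 TPM in the 7 control embryos. They summed to 103, 205, 228, 44.4, 72.3, 194, 263 and 15.7 TPM in the 8 K36M oocyte-derived embryos. The groups did not overlap, and the ratio of means was 0.301. In FGOs the same sum was 58.1, 57.9 and 32.5 TPM in control and 102, 70.5 and 80.3 TPM in K36M libraries, again without overlap but higher with K36M, with a ratio of 1.71. Neither separation held without H3c8: the other 3 H3.1 genes summed to 12.5 to 42.7 TPM in control and 27.4 to 41.5 TPM in K36M FGOs, and to 50.6 to 514 TPM in control and 1.34 to 218 TPM in K36M oocyte-derived embryos, with overlap in both stages and ratios of means of 1.22 and 0.321. The sum of the 8 H3.2 genes overlapped in both stages, at 545 ± 273 TPM in control and 313 ± 170 TPM in K36M oocyte-derived embryos. No test was run on these sums.

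**Figure D5:**
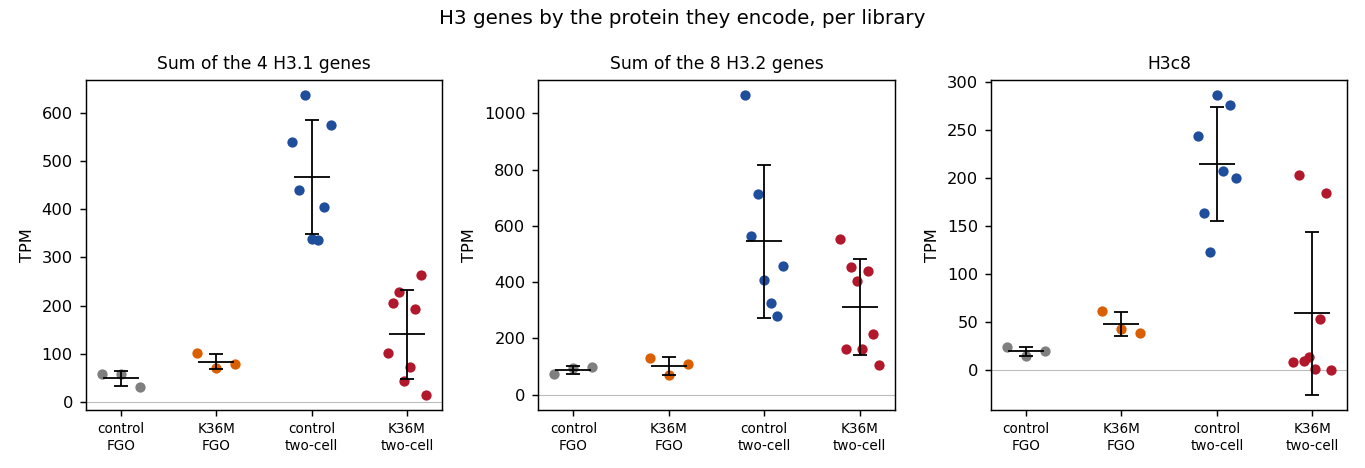
TPM per library, on linear axes, of the 4 H3.1 genes summed, the 8 H3.2 genes summed and H3c8 alone, in the 4 groups. Points are libraries and bars the mean ± SD (n = 3, 3, 7 and 8). The H3.1 sum lies between 337 and 637 TPM in control embryos and between 15.7 and 263 TPM in K36M oocyte-derived embryos, while the H3.2 sums overlap.

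The interaction of genotype and stage, tested in the fit over both stages, called 0 of 62 members (0% of all 17358 genes). At an unadjusted p under 0.05, 0 members were positive (0.207% of all genes) and 2 negative (0.939%). These were H3c8 (-4.85 ± 1.55, unadjusted p = 0.00468) and H3c10 (-4.19 ± 1.72, unadjusted p = 0.0225), both H3.1 genes, with an adjusted p of 1.00. All 12 H3 genes (11 measurements, with H3c14 and H3c15 counted once) had an interaction value below 0, as 63.4% of all genes did. So did 10 of 12 H4, 5 of 6 H1, 10 of 17 H2A and 9 of 15 H2B genes. H3c10 is named after its values were seen.

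Genes that act on histone mRNA were read beside the members. Of 16 tested genes of histone mRNA processing, 5 rose and 4 fell in control embryos against control FGOs, where 13.4% of all genes rose and 13.2% fell, and 6 rose and 5 fell in the K36M groups (10.8% and 18.6% of all genes). Slbp, the stem-loop binding protein and the most abundant of them, went from 939 to 352 TPM (log2 fold change -1.45 ± 0.24, adjusted p = 8.19e-05). Npat, the coactivator of replication-dependent histone transcription, went from 17.2 to 78.9 TPM (2.11 ± 0.46, adjusted p = 0.00133). Coil, a Cajal body scaffold, and Ncbp1, a cap-binding subunit, rose by 2.42 ± 0.34 and 4.41 ± 0.41. Of the 10 genes of histone mRNA decay, 2 rose and 2 fell in controls and likewise in the K36M groups, against the same shares of all genes. In controls the uridylyltransferase Tut4 rose (2.68 ± 0.62, adjusted p = 0.00229) and the helicase Upf1, the most abundant, fell (-1.08 ± 0.28, adjusted p = 0.00523).

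Replication-independent histone genes, most of whose mRNAs are polyadenylated, moved differently from gene to gene. Of 14 tested, 3 rose and 1 fell in control embryos, and 2 rose and 3 fell in the K36M groups, against the shares of all genes given above. H1f8, the oocyte linker histone, went from 4024 to 124 TPM (-5.33 ± 0.57, adjusted p = 1.8e-07), while H1f1 went from 1102 to 4260 TPM. H2az1, a replacement H2A, rose from 29.4 to 347 TPM (3.41 ± 0.61, adjusted p = 0.000179). Among 20 S phase genes, 3 rose and 4 fell in controls and 3 rose and 2 fell in the K36M groups, again beside these shares. Ccne1, the cyclin E1 gene, went in controls from 11.7 to 907 TPM (6.11 ± 0.29, adjusted p = 2.58e-13). In K36M against control libraries no gene of these 4 lists was called in either stage, with limma.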

How the data were processed

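RNA of pooled FGOs or single late two-cell embryos was sequenced with a stranded, randomly primed kit. Per the study's methods, the authors trimmed adaptor bases, aligned with Hisat2, discarded reads of ribosomal RNA, used featureCounts for gene counts and deposited TPM (mm10 per the labels' processing notes). The annotation, gene lengths, strand setting and handling of multimapping reads are not given in the sources used here. The study lists total sequenced reads per library, more in each FGO library than in each embryo, but the number of reads behind each TPM value is not given in the sources used here, so no counting interval could be given.

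Groups were taken from the labels. The members and gene lists were chosen with earlier results of these data known. TPM was transformed as log2(TPM + 1), genes with a mean of at least 1 TPM in the fitted libraries were kept, and limma (version 3.58.1) was fitted with a mean-variance trend to 6 FGO libraries, 15 two-cell libraries, or all 21 with 4 groups (stage comparisons and interaction). All p-values were adjusted over all genes tested (Benjamini-Hochberg, threshold 0.05). Fold changes on this scale understate the change of low genes. The study tested counts. Control two-cell replicate 4 was left out, as in the study, and entered an alternative.

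Named members were the 3 most abundant of each class, members called with K36M or in the interaction, the 3 largest changes each way among those called per stage comparison, and H1f6, H2ac1 and H2bc1. H4c6, H4c9, H3c10, Npat, Coil, Ncbp1, Tut4, H2az1 and Ccne1 were added after their values were seen. Sequences are from RefSeq on GRCm38.p6, the assembly of mm10. Motifs were searched on both strands. Scripts were tested on simulated data. Same-numbered replicates did not deviate together, so the numbers were not used to pair samples. Alternatives were another pseudocount, filter, scaling, weighting, fit or replicate block, and each library left out in turn.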

Additional observations from a re-analysis of the deposited data

Results flagged for a closer look

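The highest and lowest embryo were compared with the rest of the group in 60 comparisons (22 named members and 8 sums in 2 groups). In 8, a library was set apart at a level that chance passes in about 1 group in 20 for normally distributed values. The distribution of these TPM was not checked, so the chance rate here is not known, and all 8 were high values. In control embryo replicate 1, H1f3 was at 107 TPM (5.08 to 45.0 TPM in the others), H1f6 at 73.6 TPM (0 to 6.77) and H4c4 at 701 TPM (90.4 to 330). H3c1 was at 326 TPM in control replicate 3 (0 to 102 TPM in the others) and at 208 TPM in K36M oocyte-derived replicate 3 (0 to 28.0 TPM). H4c2 was at 599 TPM in control replicate 6 (0 to 163 TPM). Among K36M oocyte-derived embryos, H2bc1 was at 930 TPM in replicate 1 (0 to 153 TPM) and H2bc18 at 3976 TPM in replicate 4 (798 to 1959 TPM).

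The summed H3.1 genes had a ratio of K36M to control means of 1.71 in FGOs and 0.301 in two-cell embryos, with every K36M library above every control in FGOs and below every control in embryos. Without H3c8 the sum of the other 3 overlapped between K36M and control in both stages (ratios of 1.22 and 0.321). The difference between the stages was not tested for the sum, and the interaction called no single H3.1 gene.

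Control two-cell replicate 4, which was not used, had a members' sum of 32135 TPM, against 12494 to 19620 TPM in the other control embryos.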

How the results depend on the processing

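Array weights raised the calls in K36M embryos against K36M FGOs from 19 to 32 (28 higher, 4 lower) and in controls from 27 to 40 (37 higher, 3 lower). The calls over all genes rose as well, to 19.3% higher and 29.8% lower in the K36M groups and 28.1% and 27.9% in controls. Leaving out single libraries gave 0 to 5 calls for K36M in FGOs (5 without K36M FGO replicate 1), 16 to 30 in control embryos against control FGOs (16 without control FGO replicate 3), and 12 to 22 in the K36M groups across stages (12 without K36M FGO replicate 1 or 2). K36M in embryos and the interaction kept 0 calls under every alternative run. With the replicate number as a replicate block, the calls were 0 for K36M in FGOs, for K36M in embryos and for the interaction. For control embryos against control FGOs they were 29 (28 higher, 1 lower), beside 12.4% and 9.97% of all genes. For the K36M groups they were 19 (19 higher, 0 lower), beside 10.1% and 14.1%. No call count moved by over 1.5 times, and samples share only a number (correlations of deviations from -0.10 to 0.10). Among the named members the replicate block took away the calls of H3c11 in controls (4.68, adjusted p = 0.0551) and of H2ac1 (-1.23, adjusted p = 0.0511) and H4c1 (2.87, adjusted p = 0.0556) in the K36M groups, and added that of H2bc11 in controls (1.76, adjusted p = 0.0222). Leaving out each embryo in turn was added after the data were seen.

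Of 40 log2 fold changes followed through 1154 alternatives, 34 alternatives took a call away, 9 added one and 7 turned the sign. The 7 were of 2 changes that were not called. H1f1 in K36M against control embryos was -0.033 with control two-cell replicate 4 added. H2bc1 in control embryos against control FGOs was 0.21 with control two-cell replicate 4 added, and ranged from -0.34 to 0.097 when single libraries were left out, above 0 without control FGO replicate 1 or 2 (0.097, 0.057) or control two-cell replicate 2, 3 or 7 (0.075, 0.012, 0.0793). Median-of-ratios scaling moved the median of all genes from 0.00 to -0.19 in control embryos against control FGOs, and that of the members from 1.90 to 1.59. Quantile normalization moved it from -0.26 to -0.04 for K36M in embryos, and that of the members from -0.33 to -0.17. With 3 FGO libraries a group and single embryos sequenced less deeply than FGOs, a value of 0 or a p that misses the threshold does not show absence or equality.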
